A study of Mus musculus with 2 samples.

Results

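Malat1, Neat1, Miat and Pantr1 are long noncoding RNAs that act in or near the nucleus or are known from the nervous system, and their levels, transcripts and processing were described in the embryonic mouse central nervous system. The members were taken by gene identifier and make up 4 of 43346 Ensembl genes in the deposited tables. Both libraries came from C57BL/6J embryos at embryonic day 11.5, from central nervous system tissue of littermates of both sexes, with no treatment or genetic change named in the labels. They are labelled biological replicates 1 and 2 of this single group (n = 2), so no conditions were compared and no p-value is given. RNA longer than 200 bases was depleted of ribosomal RNA and selected for poly(A), and strand-specific paired-end libraries were sequenced. Each library is a pool of embryos, and the labels do not say whether the pools came from separate litters, so each SD below covers only the difference between a pair of samples that may share litters.

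Malat1 is a nuclear RNA of the speckles, the bodies where splicing factors gather. Its end is made by RNase P, which cuts off a tRNA-like RNA and leaves an A-rich end that folds into a helix instead of carrying a poly(A) tail. Neat1 is the scaffold of paraspeckles. It is made as a short polyadenylated form and as a long form that shares the start, reads past the poly(A) signal and ends like Malat1. Miat, also called Gomafu, is a spliced nuclear RNA of neurons and their progenitors that carries repeats of the sequence ACTAAC, which the splicing proteins Sf1 and Qk bind. Pantr1 lies beside Pou3f3, a transcription factor gene of the developing brain, and is transcribed away from it.

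On mm10, Malat1 (ENSMUSG00000092341.2) lies at chr19:5795690-5802672, Neat1 (ENSMUSG00000092274.2) at chr19:5824708-5845478, Miat (ENSMUSG00000097767.4) at chr5:112213228-112229395 and Pantr1 (ENSMUSG00000060424.10) at chr1:42590782-42694842. All are typed as long intergenic noncoding RNAs in GENCODE M21. The deposited tables hold 5 transcripts of Malat1, 3 of Neat1, 6 of Miat and 12 of Pantr1.

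The sequences below show the features by which these RNAs are recognised. They are GENCODE M21 transcript sequences on mm10, all on the minus strand of the chromosome, written 5′ to 3′. The first pair shows the A-rich tract near the end of Malat1-201 (chr19:5795922-5796061) and at the end of the long transcript Neat1-201 (chr19:5824708-5824787). Capitals mark 11 bases of this tract that both hold. They do not mark every stretch the pair shares, since a longer T-rich stretch upstream, left in lower case, is also held by both.
Malat1-201: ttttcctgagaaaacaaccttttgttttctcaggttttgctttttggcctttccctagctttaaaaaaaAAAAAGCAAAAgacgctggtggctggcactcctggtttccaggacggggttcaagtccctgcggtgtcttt
Neat1-201: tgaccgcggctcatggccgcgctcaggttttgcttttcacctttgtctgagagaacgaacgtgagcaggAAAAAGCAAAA
In Malat1-201 the tract AAAAAGCAAAA ended at base 6691 of 6983, leaving 292 annotated bases after it. In Neat1-201 it formed the last bases of the transcript. Searched on the transcript strand, the tract was held by 8 of 1323 other long intergenic noncoding RNA genes whose longest transcript has at least 2000 bases (0.605%).

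The next sequence is the end of the short transcript Neat1-202 (chr19:5842307-5842386), shown because it separates the forms of Neat1, with the poly(A) signal AATAAA in capitals.
Neat1-202: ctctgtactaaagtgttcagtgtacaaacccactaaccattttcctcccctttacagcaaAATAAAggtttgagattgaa
The signal began 20 bases from the transcript's end, counting its own first base. AATAAA was found in the last 50 bases of 38.0% of the same 1323 genes.

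Miat is shown by the stretches of its last exon that hold the first 8 of its ACTAAC repeats (chr5:112217313-112217454 and chr5:112216756-112216872), in capitals.
Miat-201, first stretch: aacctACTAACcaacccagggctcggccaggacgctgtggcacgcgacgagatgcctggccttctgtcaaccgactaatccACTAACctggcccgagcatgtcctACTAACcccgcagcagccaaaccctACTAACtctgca
Miat-201, second stretch: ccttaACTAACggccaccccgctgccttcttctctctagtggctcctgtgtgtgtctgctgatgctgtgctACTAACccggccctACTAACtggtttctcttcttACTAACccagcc
Miat-201 held 11 matches to ACTAAC, all in its last exon of 7006 bases, or 1.26 per 1000 bases. Of the 1323 other genes, 33.6% held any match, and 3 of them (0.227%) were as dense or denser. Malat1-201 held 0 matches, Neat1-201 held 4 and the short Miat-206 held 0. These matches describe the letters and are not binding sites measured here.

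Pantr1 is shown by its second exon in Pantr1-201 (chr1:42663556-42663602), whole and in capitals, because some transcripts skip it.
Pantr1-201, second exon: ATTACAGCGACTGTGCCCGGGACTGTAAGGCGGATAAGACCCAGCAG
The exon has 47 bases, and its use is given with the junction reads of Pantr1.

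The libraries held 120461123 and 108006997 expected counts on Ensembl genes, and they stood apart in the markers of several cell types. Marker genes of neurons summed to 1380 TPM in replicate 1 and 1160 in replicate 2, with 6 of 6 at 1 TPM or more in each, and those of neural progenitors to 1242 and 788, again with 6 of 6 in each. The erythroid markers, which mark blood, summed to 9879 and 16307 TPM with 5 of 5 detected, and those of liver and yolk sac to 897 and 353 with 4 of 4. Markers of endothelium summed to 85.6 and 91.2 TPM and those of mesenchyme to 488 and 473, all at 1 TPM or more. The 4 Hox genes of caudal identity summed to 1.45 TPM in replicate 1 and 84.6 in replicate 2, where 1 and 4 of them reached 1 TPM. None of these markers was at 0 in either library. The part of cell makeup in the differences below was not tested, and in bulk tissue fewer cells of a type and less RNA per cell cannot be told apart.

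Miat and Malat1 were the most abundant of the RNAs, and Neat1 was by far the lowest. In TPM (transcript abundance per length, set to the same total in each library), Miat reached 595.8 and 473.5 in replicates 1 and 2, or 535 ± 86.5 (SD, n = 2), rank 242 of all genes and rank 6 of 2777 long intergenic noncoding RNA genes. Malat1 stood at 497 and 349 TPM, or 423 ± 105 (SD, n = 2), rank 7 among those noncoding genes. The libraries were selected for poly(A), which the end of Malat1 is known to lack. The part of this selection in the level and rank of Malat1 was not tested. Miat lay above Malat1 in each library, though their ranges overlapped. Over transcripts of at least 500 bases, Miat had 553 and 299 TPM and Malat1 had 496 and 349. On that scale the order differed between the libraries, so the order of Miat and Malat1 is not taken as settled. Pantr1 stood at 202 and 143 TPM, or 173 ± 41.5 (SD, n = 2), and did not overlap with either. Neat1 stood at 12.3 and 11.3 TPM, or 11.8 ± 0.750 (SD, n = 2), rank 48 among the noncoding genes. All of its values lay far below the other 3 RNAs, and mean TPM was 45.3 times higher for Miat and 35.8 times higher for Malat1. Replicate 1 was the higher library for each of the 4 RNAs.

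**Figure D1:**
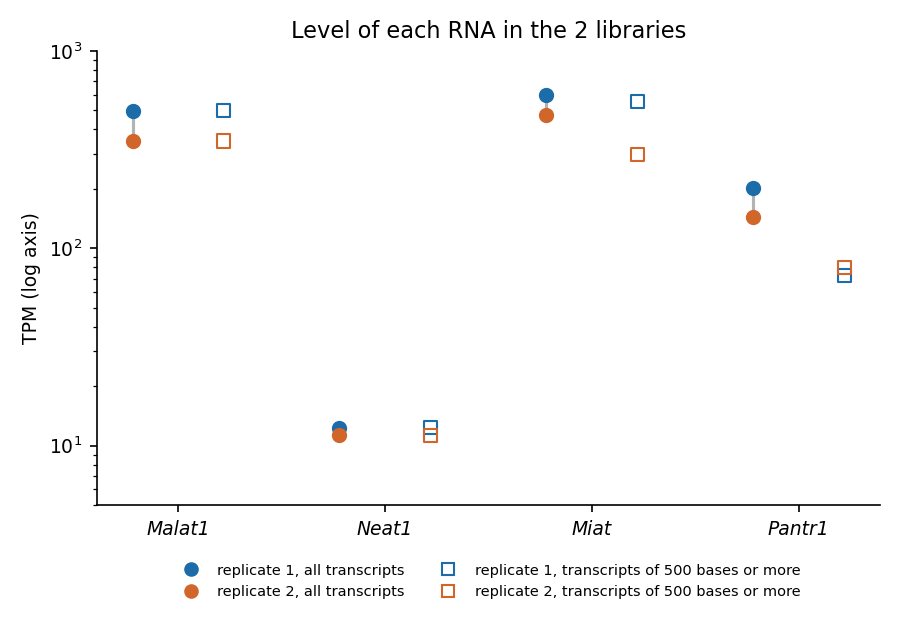
TPM of each RNA on a log axis in replicate 1 (blue) and replicate 2 (orange), with all transcripts (filled circles, joined by a line) and with transcripts of at least 500 bases only (open squares). Miat and Malat1 lie between 349 and 596 TPM and Neat1 near 12, and the squares of Pantr1 lie at 72.8 and 79.5, below its circles.

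The level of Pantr1 rested in large part on transcripts under 500 bases. Its 3 transcripts under 500 bases gave 64.0% of its TPM in replicate 1 and 44.6% in replicate 2, but 33.0% and 14.2% of its expected counts. Counted over transcripts of at least 500 bases only, Pantr1 stood at 72.8 and 79.5 TPM, with replicate 2 the higher. That order rests on the cutoff, which just leaves out Pantr1-212, of 499 bases, with 42.45 and 15.63 TPM. With Pantr1-212 kept, replicate 1 would again be the higher. By count, Pantr1 (4225 and 3000) was close to Neat1 (3302 and 2905), although its TPM was far higher. Per 1000 bases of the longest annotated transcript and 1000000 counts, the values were 16.8 and 13.3 for Pantr1 and 1.32 and 1.29 for Neat1, so Pantr1 stayed above Neat1 on that scale too. The same scale gave 342 and 229 for Malat1 and 368 and 189 for Miat. On mm9 gene models of Ensembl 65, where values are RPKM (also a level per length), the first and second value were 76.8 and 68.2 for Malat1, 86.2 and 43.0 for Miat, 2.93 and 0.881 for Pantr1 and 0.298 and 0.288 for Neat1. Neat1 was again the lowest, and the Pantr1 model there is the 198-base transcript only. The 4 RNAs together took 0.582% and 0.339% of all Ensembl counts, nearly all of it from Miat and Malat1.

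Of the 4 RNAs, only Miat differed by 2-fold or more between the libraries under the main scaling. Ratios were taken from expected counts scaled by TMM, which sets the bulk of genes equal, and a gene was called apart when its summed count was at least 100 and its ratio at least 2-fold. Miat had 405830 counts in replicate 1 and 187142 in replicate 2. It was 2.12-fold lower in replicate 2 (exact 95% binomial interval 2.11 to 2.13, counting error only), a log2 ratio of -1.08. Of 16508 genes tested, 5.03% were called lower in replicate 2 and 6.37% higher, so 1 of 4 RNAs called lower is read against that background and with no replicate check on the difference. Malat1, with 288071 and 172861 counts, was 1.63-fold lower (1.62 to 1.64). Pantr1 was 1.38-fold lower (1.31 to 1.44) and Neat1 1.11-fold lower (1.06 to 1.17). These intervals compare the libraries, not conditions.

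The call on Miat depended on the scaling and on the use of counts or TPM. Its log2 ratio was -1.11 with DESeq2 size factors, -0.96 by total count, -0.33 by deposited TPM and -0.24 by the total of the ERCC spike-ins, RNAs added in known amounts. Spike-in scaling also turned the sign for Malat1 (0.14), Neat1 (0.69) and Pantr1 (0.38). It moved the median of all genes tested from -0.01 to 0.84. Relative to that median Miat stood at -1.08, Malat1 at -0.70, Pantr1 at -0.45 and Neat1 at -0.15, as under TMM. That match is set by arithmetic, because these scalings differ only by a constant factor for each library. With deposited TPM the median was 0.12 and Miat stood at -0.45 relative to it. TPM also divides by effective length, which for Miat was 7970 bases in replicate 1 and 5390 in replicate 2.

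**Figure D2:**
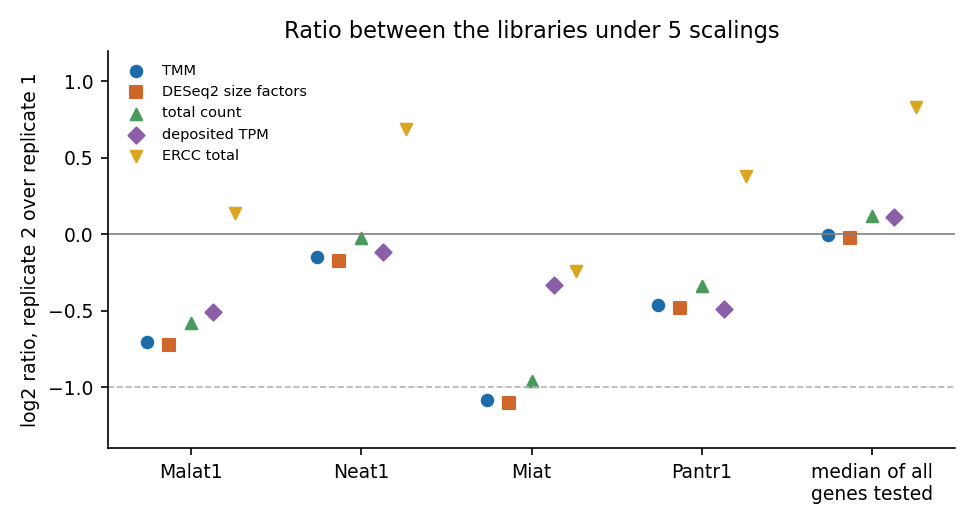
Log2 ratio of replicate 2 over replicate 1 for each RNA and for the median of the 16508 genes tested, under 5 scalings, with the dashed line at a 2-fold decrease. Miat passes the line with TMM (-1.08) and DESeq2 size factors (-1.11) only, and spike-in scaling lifts every RNA together with the median gene (0.84).

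Malat1 came almost wholly from its unspliced transcript. Malat1-201, of 6983 bases and 1 exon, held 99.6% of the gene's transcript TPM in replicate 1 and 99.4% in replicate 2, with 288004 and 172790 counts. No other Malat1 transcript reached 5%. In the mm9 files, which list values pooled over or not tied to a replicate, 1 contig (a stretch of continuous coverage) spanned Malat1 at a level of 163, against a median of 0.0710 over 816060 contigs. It ran 2925 bases past the annotated 3′ end. Of the 3 introns annotated for Malat1, 2 were found in the junction list, with 2 and 0 reads over one and 0 and 9 over the other.

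In the mm10 tables Neat1 was assigned mostly to the short form. Neat1-202, of 3004 bases, stood at 10.8 and 10.3 TPM, 87.8% and 91.2% of the gene, while the long Neat1-201, of 20771 bases, stood at 0.34 and 0.50 TPM, 2.76% and 4.43%. Because of its length Neat1-201 still held 18.1% and 25.8% of the gene's counts (598 and 750). Neat1-203, of 1030 bases and 4 exons, held 9.40% of TPM in replicate 1 and 4.34% in replicate 2, from 84.2 and 29.9 counts. Neat1-202 is annotated with 2 exons. Its intron of 166 bases, shared with Neat1-203, had only 5 and 4 junction reads on mm9 in the first and second value. The libraries were selected for poly(A), which the end of the long form is known to lack, and the part of this selection in the split and in the level of Neat1 was not tested. The forms share their first bases, so the split between them is an estimate by the authors' quantification.

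Coverage along Neat1 showed the same tilt to the 5′ end. The contig at that end had a level of 2.97 and reached 6360 bases into the gene, past the end of Neat1-202 at 3172 bases. The 7 other contigs lay between 0.0750 and 0.247, and together the contigs covered 97.9% of the gene. Each contig carries a single level for its whole length, so differences inside the first contig cannot be seen. With that level assigned to all its bases, the mean over the span of Neat1-202 was 2.97 and over the rest 0.655. Their ratio of 4.53 depends on where the boundary cuts the first contig. The rest includes part of the first contig, and that contig against the 7 others gave 20.1. The mm9 transcript table, on Ensembl 65 models, placed the signal otherwise: its first and second RPKM value were 0.297 and 0.287 for Neat1-201 and 0.000377 and 0.000691 for Neat1-202. The mm10 and mm9 tables thus assign Neat1 reads to opposite forms, and the contig levels are the value here that rests on no such assignment.

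**Figure D3:**
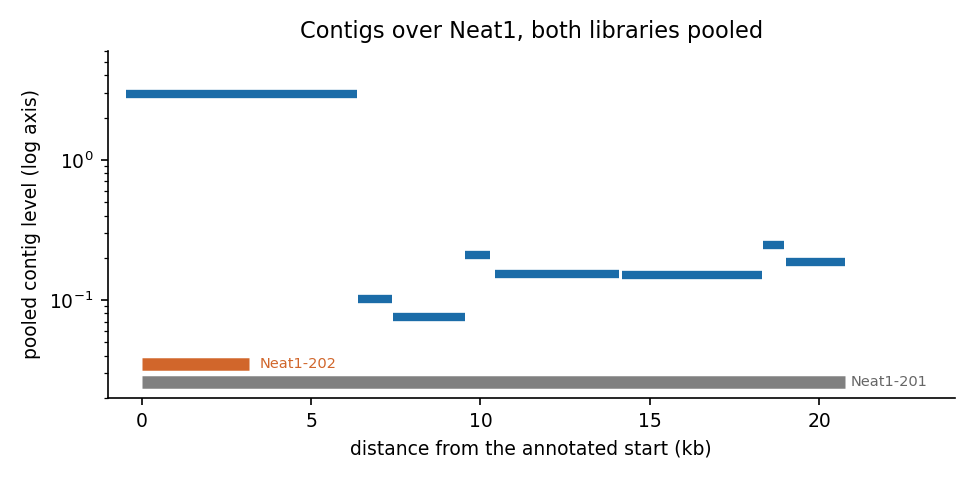
Pooled level of each contig on the strand of Neat1 (log axis) against distance from the annotated start in kb, with the spans of Neat1-202 (orange) and Neat1-201 (grey) below. The contig at the start stands at 2.97 and the 7 others between 0.0750 and 0.247.

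In the mm10 tables Miat was assigned mostly to Miat-201, with a short transcript that differed between the libraries. Miat-201, of 8758 bases and 7 exons, had 524 and 264 TPM, 87.9% and 55.8% of the gene. Miat-206, of 357 bases, stood at 37.3 and 168 TPM, 6.27% and 35.5%. In counts Miat-206 was a minor transcript, with 575 and 2058 counts or 0.142% and 1.10% of the gene, since an effective length of 180 and 167 bases turns few reads into many TPM. Miat-205, of 9163 bases, held 4.62% and 6.00%. Over transcripts of at least 500 bases Miat stood at 553 and 299 TPM, a log2 ratio of -0.89, between the value from counts and the value from all TPM.

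**Figure D4:**
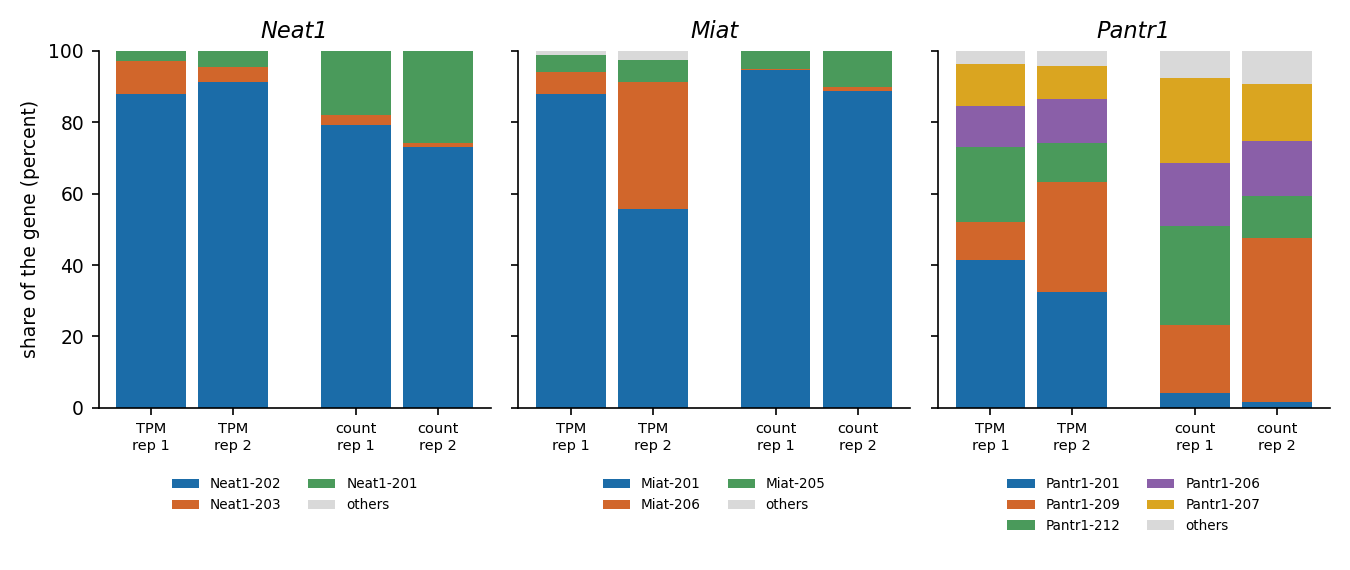
Share of each transcript in its gene, as percent of TPM and as percent of expected counts, in replicates 1 and 2, for Neat1, Miat and Pantr1. Miat-206 takes 35.5% of TPM but 1.10% of counts in replicate 2, and Pantr1-201 takes 41.3% of TPM but 4.17% of counts in replicate 1.

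Junction reads on mm9 showed that the introns of Miat did not keep a single ratio between the first and second value. Over 116840 junctions with at least 100 reads the median ratio of second to first was 0.950, with quartiles of 0.622 and 1.45. The Miat model was matched to mm9 by strand, span length and intron lengths, and 9 of 10 annotated introns were found. The intron of 347 bases before the last exon had 7902 and 2408 reads, a ratio of 0.305, below the lower quartile. The intron of 2333 bases had 5031 and 2459 reads, a ratio of 0.489. The intron of 3698 bases had 4211 and 4998 reads, a ratio of 1.19, and the first intron of 252 bases had 1849 and 1814 reads, a ratio of 0.981. The introns with a low ratio were thus those nearer the 3′ end, except that of 245 bases with 2868 and 2636 reads.

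The first donor of Miat was joined to alternative exons. The intron of 430 bases, found only in Miat-206, had 653 and 1247 reads. It took 26.1% of the reads at that donor in the first value (exact 95% binomial interval 24.4 to 27.9) and 40.7% in the second (39.0 to 42.5). These intervals do not overlap, but they cover counting error only. The intron of 86 bases, the only one found in Miat-201 alone, had 42 and 110 reads. That of 130 bases, in Miat-203 and Miat-205, had 560 and 696. An unannotated intron of 122 bases, chosen after its reads were seen, had 894 and 1269. Few reads thus crossed the intron particular to Miat-201, and its share above is an estimate by the authors' quantification. A junction of 6180 bases that M21 does not annotate, chosen here after its reads were seen, skips an exon of 149 bases and had 1133 and 352 reads. By junction reads the exon was included in 80.3% (79.3 to 81.3) and 91.4% (90.5 to 92.2). The single contig over Miat had a level of 130 and covered the whole mm9 model.

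**Figure D5:**
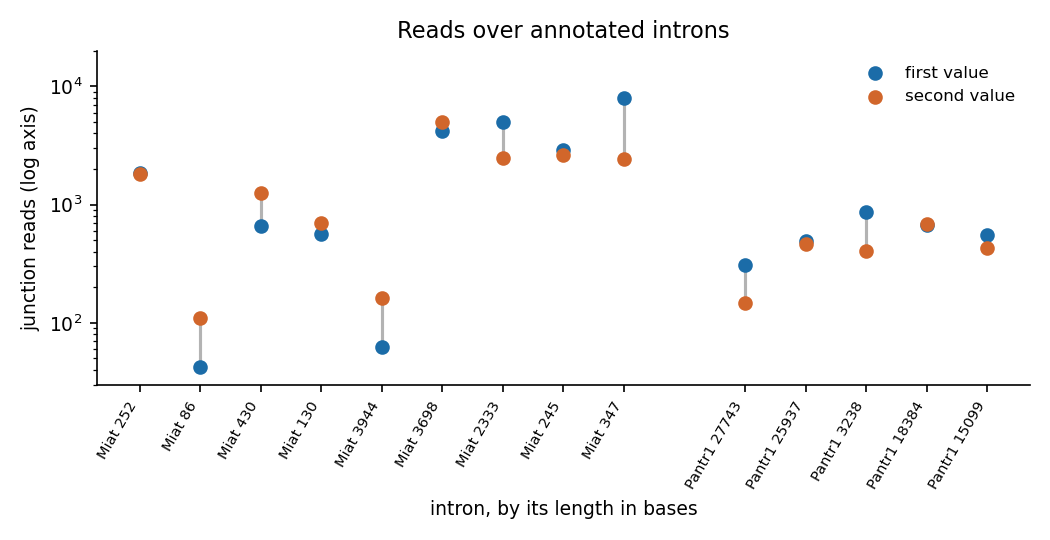
Reads over each annotated intron of Miat and Pantr1 with at least 100 reads in sum (log axis), ordered 5′ to 3′ and named by length, for the first (blue) and second (orange) deposited value. The Miat intron of 347 bases falls from 7902 to 2408 reads while that of 3698 bases has 4211 and 4998.

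Pantr1 was a mixture of short spliced transcripts. Pantr1-201, of 198 bases, held 41.3% and 32.5% of TPM from 4.17% and 1.76% of counts (176 and 52.7), with an effective length of 24.7 and 15.4 bases. By counts the leading transcript was Pantr1-212 in replicate 1 (27.7%, against 11.8% in replicate 2) and Pantr1-209 in replicate 2 (45.8%, against 19.05% in replicate 1). In TPM, Pantr1-212 held 21.0% and 10.9%, and Pantr1-209 held 10.6% and 30.7%. Pantr1-206 held 11.7% and 12.4%, and Pantr1-207 held 11.6% and 9.28%, so these differed less between the libraries.

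The 47-base exon printed above was both used and skipped. The intron that leads into it, of 3238 bases, had 858 and 402 reads, and the intron that skips it, of 18384 bases, had 671 and 686. Skipping took 43.9% (41.4 to 46.4) of the reads at the shared donor in the first value and 63.1% (60.1 to 65.9) in the second. At the downstream acceptor the same intron took 53.6% (50.8 to 56.4) and 60.7% (57.8 to 63.6), a smaller gap. By the mean reads of the introns on either side of it, the exon was included in 51.3% and 37.8%. The size of the difference thus depended on the site used. The start of Pantr1 was mixed as well. At the shared acceptor, the intron of 25937 bases from the inner first exon took 57.0% (53.6 to 60.3) and 74.4% (70.8 to 77.7) of the reads, and that of 27743 bases from the outer one 35.7% (32.5 to 39.0) and 23.2% (20.0 to 26.8). The 3 contigs over the mm9 model had levels of 4.94, 0.942 and 1.58. On the opposite strand 6 contigs covered 6.11% of the model, the highest at a level of 3.81. Their mean level over the model was 0.0173, against 2.00 on the strand of Pantr1, so the contig at 3.81 covered little of the model.

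Genes beside the RNAs differed widely in level. Pou3f3, a transcription factor of neural progenitors and cortical neurons, had 67.9 and 29.8 TPM and was 2.60-fold lower in replicate 2. Pantr1 itself was 1.38-fold lower. Pantr2, the noncoding RNA on the other side of Pou3f3, had 17.2 and 13.7 TPM. Beside Miat, the lens crystallin gene Cryba4 had 1.26 and 0.860 TPM, and Crybb2 was listed at 0. Srrd, also near Miat, had 40.2 and 46.3 TPM. Among the nearest rows on other sides, Gm27702, Frmd8os and 1700028D13Rik, had 0 counts in both libraries, and AC122898.1, which lies 83 bases from the start of Pantr1, had 86 and 33. Of 12 neighbours, 9 reached 1 TPM in both libraries, 1 of 10 tested was called lower and 0 higher (5.03% and 6.37% over all genes tested), with a median log2 ratio of -0.27 against -0.01 over all genes tested.

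Rows that overlap the RNAs took few reads. Antisense to Malat1, Gm37376 had 5 and 324 counts, and antisense to Miat, Gm26953 had 0 and 21. On the strand of Miat, Gm27998, a small annotated RNA inside its last exon, had 0 and 381 counts. Reads of Miat and of such a row on its strand cannot be told apart by position, and the 381 stand beside 187142 of Miat.

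By nearness of level over the 2 libraries, with the distance taken in log2(TPM + 1), Malat1 and Miat were each other's nearest among 5693 other noncoding genes (distance 0.510). Neat1 was nearest to Gm10501 (13.1 and 11.4 TPM, distance 0.0785) and Pantr1 to Cct6a (207 and 170 TPM, distance 0.244), whose row M21 types as a processed transcript although the gene encodes a chaperonin subunit.

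Among 25 matched genes of a list of long noncoding RNAs, which holds the 4 members, 24 reached 1 TPM in both libraries. By mean TPM the highest were the imprinted RNAs H19 (1499.7 and 2839 TPM), Meg3 (1352 and 1596) and Rian (899.9 and 1651), all higher in replicate 2, and the lowest was Kcnq1ot1 (0.970 and 1.58). In replicate 1 alone Gas5, with 1315 and 1200.1 TPM, lay above Rian. Of 24 tested, 3 were called lower, namely Miat, Crnde (2.25-fold) and Epb41l4aos (2.04-fold), and 1 higher, the imprinted Airn, with 559 and 1558 counts and a log2 ratio of 1.51. Over all genes tested 5.03% were called lower and 6.37% higher. By deposited TPM none of the 3 was past 2-fold, with log2 ratios of -0.33 for Miat, -0.86 for Crnde and -0.77 for Epb41l4aos. The list's median log2 ratio was -0.09.

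RNAs that encode paraspeckle proteins were abundant, and protein was not measured. All but 1 of 28 reached 1 TPM in both libraries, with list medians of 201 and 168 TPM. By mean TPM the highest were the RNA-binding proteins Hnrnpa1 (2603 and 1857 TPM), Hnrnpk (1839 and 1088) and Hnrnph1 (1589 and 1027), and the lowest was Zc3h6 (0.980 and 1.35). In replicate 1 alone Ewsr1, with 1899 and 686 TPM, lay above Hnrnpk. Of the core proteins that bind Neat1, Nono had 652 and 618 TPM and Sfpq 758 and 426. Taf15, an RNA-binding protein, was the only one called, 2.27-fold lower in replicate 2, with 0 higher, so 1 of 28 was near the 5.03% of all genes called lower. The median log2 ratio was -0.22. By deposited TPM 3 were past 2-fold, Taf15 (-1.03 on the log2 scale), Ewsr1 (-1.47) and Pspc1 (-1.09).

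RNAs for nuclear speckle and splicing proteins, which share the compartment of Malat1, all reached 1 TPM (22 of 22), with list medians of 422 and 332 TPM. By mean TPM the highest were the splicing factor Srsf5 (1259 and 735 TPM), the helicase Ddx39b (852 and 883) and the U1 protein Snrnp70 (1024 and 380), and the lowest was Prpf6 (68.4 and 42.4). Replicate 1 carried the rank of Snrnp70, which in replicate 2 lay below Srsf2 (620 TPM) and Srsf1 (589). Lower in replicate 2 were Snrnp70 (3.10-fold), Acin1 (2.15-fold) and Rbm25 (2.12-fold), 3 of 22, with 0 higher and a median log2 ratio of -0.23, beside 5.03% lower and 6.37% higher over all genes tested. Of these 3, only Snrnp70 was also past 2-fold by deposited TPM, at -1.43 on the log2 scale. Luc7l3, not called under TMM (-0.70), was past 2-fold by deposited TPM as well, at -1.07.

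RNAs for subunits of RNase P, RNase Z (Elac2) and the helix-binding Mettl16 were all detected, 12 of 12, at lower levels. The highest were Pop4 (72.2 and 74.6 TPM), Pop5 (72.0 and 42.4) and Rpp21 (53.2 and 50.2), and the lowest was Rpp25 (3.72 and 2.69). Elac2 had 27.6 and 25.3 TPM and Mettl16 43.4 and 20.9. Under TMM, 0 of 12 were called in either direction, which with 5.03% lower and 6.37% higher over all genes says little about so short a list, and the median log2 ratio was -0.30. RNAs for the proteins known to bind Miat were detected as well, 5 of 5. Srsf1 had 751 and 589 TPM, Sf1 196 and 227, Khdrbs1 110 and 103, Qk 64.4 and 104, and Celf3 83.7 and 80.5. None of these 5 was called, which at the same shares over all genes says as little, and their median log2 ratio was -0.12.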

How the data were processed

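Polyadenylated RNA of 2 libraries was analysed from deposited tables. Per the file headers, the authors deposited for each gene and transcript on mm10 an expected count, TPM, FPKM and, for transcripts, the percent of the gene. Which aligner and quantifier made them is not given in the sources used here. Deposited mm9 tables hold RPKM values and junction reads without a link to a replicate, and a contig signal (coverage level) pooled over both libraries.

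Expected counts were rounded for size factors and scaled by TMM (edgeR 4.0.16, prior count 0.5), and by DESeq2 1.42.0 as an alternative. Spike-ins stayed out of library sizes. The ratio script was tested on simulated data. Intervals are exact binomial. Symbols and types come from GENCODE M21. The text names the members, their transcripts of at least 5% share, and of each list the 3 highest genes, the lowest and those called apart (at most 5), besides the nearest rows and a few genes chosen after their values were seen (Nono, Sfpq, Elac2, Mettl16, Pantr2, Qk, Gas5, Ewsr1, Pspc1, Srsf2, Luc7l3). The members and lists were chosen with earlier results of these data known. Of 32 noncoding names 25 matched 1 row each. Miat was matched to mm9 by span and intron lengths. Exon tables were not used here, and a gene that the rule names is not reported here.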

Additional observations from a re-analysis of the deposited data

How the results depend on the processing

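No paired analysis was possible because the samples form 1 group. Of 119 values under alternative settings that keep both libraries, 75 stayed within the spread, the counting interval or 1.5 times a count, 40 moved and 4 turned sign, and their causes were not tested except where the setting itself sets the scale. The levels and shares with either replicate left out are the library values given above, which with 2 libraries cannot leave the spread and are not counted. Log2 ratios of Malat1, Neat1, Miat and Pantr1 were -0.58, -0.027, -0.96 and -0.34 by total count and 0.14, 0.69, -0.24 and 0.38 by spike-in total. DESeq2 size factors gave -0.73 for Malat1 and -1.11 for Miat, and deposited TPM -0.51 and -0.33. Over transcripts of at least 500 bases, an alternative chosen after seeing the data, the ratios were -0.51 for Malat1, -0.89 for Miat and 0.13 for Pantr1, which turned sign. The turn for Pantr1 rests on the cutoff, which just leaves out Pantr1-212, of 499 bases. No member was past 2-fold by deposited TPM, a count of 0 against 1.

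Mean levels as FPKM were 283, 7.88, 357 and 115 for Malat1, Neat1, Miat and Pantr1. Per 1000 bases of the longest transcript (chosen after seeing the data) they were 286, 1.31, 278 and 15.1. Over transcripts of at least 500 bases Miat had 426 and Pantr1 76.1 TPM, and without spike-ins and mitochondrial genes Neat1 had 13.1. In expected counts the main transcript held 99.97% of Malat1, 76.3% of Neat1 and 2.96% of Pantr1. By deposited TPM, 0 long noncoding, 3 paraspeckle and 1 end-processing gene were lower in replicate 2, and with a summed count of at least 10, 2 long noncoding genes were higher and 2 neighbours lower. On assembled mm9 models the mean RPKM was 42.6 for Malat1, 0.0441 for Neat1 and 9.27 for Miat. The Neat1 value is from the model over its 3′ part, and a second model over the 5′ part had 0.127 and 0.130. The Neat1 coverage ratio was 5.49 for the first 4000 bases, a boundary that also cuts the first contig, and 20.1 by whole contig. Junctions with at least 10 reads in each value numbered 23 in Miat, 9 in Pantr1, 2 in Malat1 and 0 in Neat1, against 50, 27, 19 and 2 with at least 1.

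With 2 libraries, no difference here has a replicate check. Junction and contig values are not tied to a library, and low counts limit Neat1-203, Pantr1-201 and the Neat1 junctions. Pantr1-201 has an effective length of 15.4 bases in replicate 2, so few reads set its TPM.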
